A study of Arabidopsis thaliana with 24 samples.

Results

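The report concerns the loci whose expression differed between dry and wet soil in a different way in Tsu-1 and in Kas-1, 2 natural accessions of the plant Arabidopsis thaliana. For each locus the drying response is dry minus wet on the log2 scale, and the quantity of interest is the Tsu-1 response minus the Kas-1 response, called the difference in response here. All 24 arrays entered it, 6 in each of the groups Tsu-1 dry, Tsu-1 wet, Kas-1 dry and Kas-1 wet, as their titles give them. Of 20514 loci in the deposited table, 12308 lay above the intensity filter and were tested. The samples were rosette leaves of plants grown singly in a porous ceramic medium under short days. Dry pots were brought to a target of 50% of their water on day 5 of a stepwise drying, and wet pots were held at about 90%. Both accessions are unmodified natural lines, and no mutant or transgene was involved. The design text names 3 biological replicates per combination for 6 arrays, and the labels do not say which arrays share a plant or an RNA. The p-values therefore measure only how arrays vary, which may be partly technical.

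Natural accessions are inbred lines from different places that can differ in how their genes respond to the same environment. A locus is said to cross over when the accession with the higher expression changes between environments, and to respond in 1 accession only when the other is flat. Leaves in drying soil make the hormone abscisic acid (ABA), and the synthesis and breakdown of leaf starch, growth and defence are all known to respond to soil water. Glucosinolates, sulphur-rich defence compounds of the cabbage family, vary strongly between accessions.

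The light harvesting genes, which mark green leaf tissue, lay at the top of the scale, at mean log2 values per array between 12.89 and 13.46 where the highest single value was 14.2. Of 9 root markers 2 passed the filter, and of 9 flower markers 1 did. Correlations between arrays of a group ran from 0.872 to 0.995. The first component of the deviations from the group means held 46.9% of that variance. The arrays with the highest scores on it were Kas-1 dry 2 (0.406), Tsu-1 wet 9 (0.394), Tsu-1 wet 7 (0.353) and Kas-1 dry 1 (0.216), and the lowest were Tsu-1 wet 8 (-0.352) and Tsu-1 wet 10 (-0.349). The sign of the component was set so that the mean of the touch, wounding and handling list rose with it. All 21 genes of that list loaded positively on it, against 51.5% of all tested loci. The list mean per array ran from 10.30 to 10.60 in Tsu-1 dry, 9.37 to 11.08 in Tsu-1 wet, 9.86 to 10.70 in Kas-1 dry and 9.35 to 10.46 in Kas-1 wet. Values are therefore also given without the 4 high arrays and without all 6, choices made after seeing the data. Because the high arrays are wet in Tsu-1 and dry in Kas-1, leaving them out by itself moves the difference in response of a locus by its loading on the component, and the part of the component in any result was not tested. Kas-1 dry 4 and 5 were closer to each other than any other pair within a group, with an SD of their differences of 0.147 against 0.243 for the next closest pair.

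No locus passed an adjusted p of 0.05 for the difference in response (0 of 12308, 0%, limma), and the smallest adjusted p was 0.0689. At an unadjusted p under 0.05 there were 722 loci (5.87%), and chance alone would give 615.4. The Tsu-1 response was the higher at 513 of them (4.17% of those tested) and the lower at 209 (1.7%). This balance depended on the scaling between arrays, since quantile normalisation gave 404 higher and 293 lower and median centring gave 429 and 253. Over all tested loci the median response was 0.00 in Tsu-1 and -0.04 in Kas-1, the median difference in response was 0.04, and its median SE was 0.16. All 722 kept their direction without the 4 high arrays, and 721 did without all 6. Of all 12308 tested loci, 8406 and 9334 did so. The 722 were chosen on arrays that mostly stay in these fits, so their direction could hardly change. Leaving out the 4 high arrays called 353 loci (2.87%), among them 99 of the 722. Of the 88 named loci, 22 gained a call there. Adjusted p-values of the fits without the 4 or all 6 arrays are printed below only where under 0.05, and not at every such locus. None of the loci below is a call of its own unless a call is stated, and each difference in response is a measured value with its error.

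**Figure D1:**
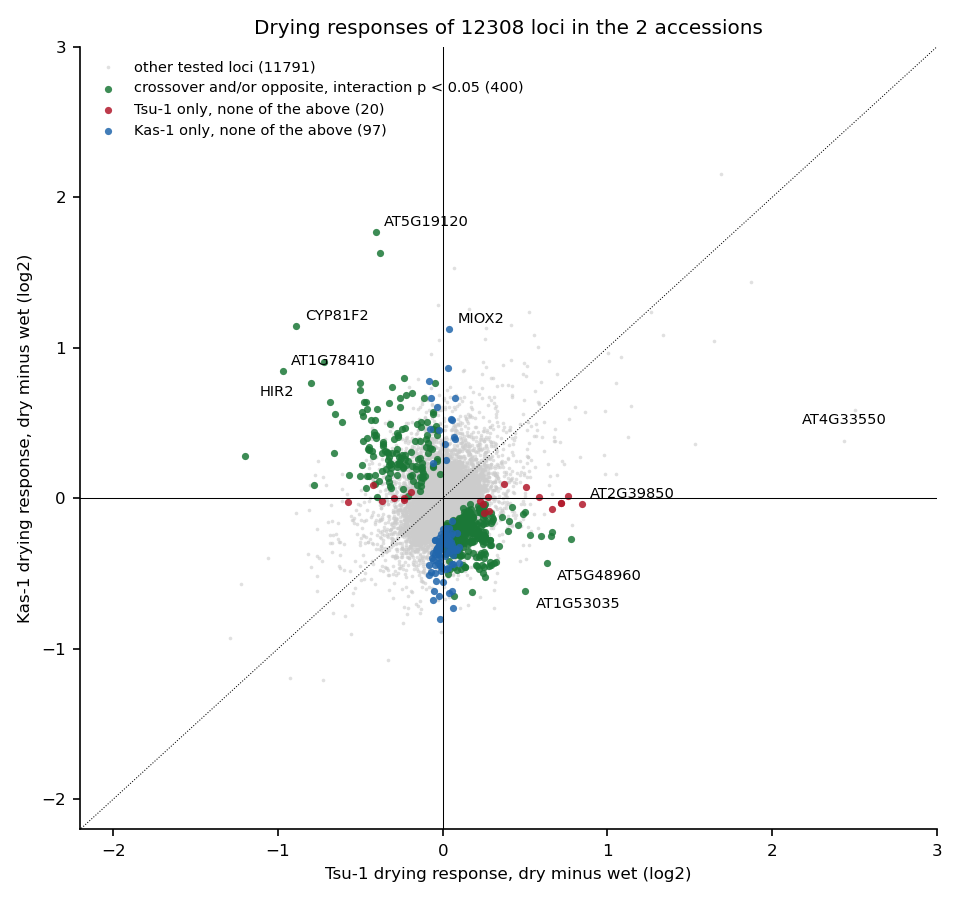
Drying response (dry minus wet, log2) of each of 12308 tested loci in Tsu-1 (horizontal) and Kas-1 (vertical), with the diagonal of equal responses dotted. Green points are the 400 loci that crossed over or had opposite responses of at least 0.2 at an unadjusted interaction p under 0.05; red (20) and blue (97) points meet the rule for Tsu-1 only or Kas-1 only without being among the green ones. The green points fill the upper left and lower right, most of the blue ones lie below 0 along the vertical axis, and AT4G33550 lies far to the right.

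Loci that crossed over were those with an unadjusted p under 0.05, responses of opposite sign, and the accession order reversed between the soils. There were 352 (2.86%), of which 235 were higher in dry soil in Tsu-1 and lower in Kas-1, and 117 the reverse. Their median absolute difference in response was 0.41, against 0.39 over the 722 loci they were drawn from and 0.12 over all loci. At 172 of the 352 the accessions differed in neither soil at an adjusted p under 0.05, so their order was not called in either soil. The same held for 7267 of all 12308 tested loci. That test was called for 30.5% of all loci in dry and 30.1% in wet soil. A stricter form, with responses of opposite sign that were each at least 0.2, held for 130 loci (1.06%), 54 higher in dry soil in Tsu-1 and 76 higher in dry soil in Kas-1, and 82 loci met both rules. Arrays of dry and wet soil did not overlap at 10 of the 352 in Tsu-1 (0.219% of all loci) and at 16 in Kas-1 (1.14%), and at 0 in both accessions. The rule itself used these contrasts, so the counts describe the loci chosen. The accession order also compares levels between accessions, and whether the probes read both accessions alike was not tested. Where 3 values follow a group, they are its lowest, median and highest log2 value over 6 arrays.

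The smallest p-value belonged to AT1G53035, for which neither the files nor the RefSeq table gives a gene name. It lay at 7.91, 8.33 and 8.56 in Tsu-1 dry, 7.39, 7.81 and 8.03 in Tsu-1 wet, 7.19, 7.62 and 7.91 in Kas-1 dry, and 7.82, 8.16 and 8.57 in Kas-1 wet. Tsu-1 was thus the higher accession in dry soil and the lower in wet soil, with the ranges of the groups overlapping at their edges. The response was 0.50 (SE 0.14) in Tsu-1 and -0.62 (SE 0.14) in Kas-1, a difference of 1.12 (SE 0.20, adjusted p = 0.0689). Without the 4 high arrays it was 0.97 (adjusted p = 0.0265), and without all 6 it was 1.18.

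AT5G48960 had the same pattern. Its values were 7.31, 7.73 and 8.07 in Tsu-1 dry and 6.9, 7.06 and 7.26 in Tsu-1 wet, so that every dry array exceeded every wet one. In Kas-1 they were 7.13, 7.39 and 7.89 in dry and 7.72, 7.82 and 8.10 in wet soil, with a single dry array in the wet range. The difference in response was 1.07 (SE 0.19, adjusted p = 0.0689), and in wet soil all 6 Tsu-1 arrays lay below all 6 Kas-1 arrays (difference -0.77, adjusted p = 2.0e-04).

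NPH3 (AT5G64330), a partner of the phototropin blue-light receptors in bending towards light, was the named gene with the smallest p. It lay at 8.49, 8.82 and 8.91 in Tsu-1 dry, 8.30, 8.53 and 8.80 in Tsu-1 wet, 7.99, 8.21 and 8.39 in Kas-1 dry, and 8.49, 8.68 and 8.76 in Kas-1 wet. All Kas-1 dry arrays lay below all Kas-1 wet arrays and below all Tsu-1 dry arrays, whereas the wet groups of the accessions overlapped. NPH3 fell by 0.47 in Kas-1 (SE 0.09, adjusted p = 0.0493), and its response in Tsu-1 was 0.22 (SE 0.09, adjusted p = 0.929). The difference was 0.69 (SE 0.13, adjusted p = 0.0923), and 0.78 (adjusted p = 0.0135) without the 4 high arrays.

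AT5G27950 differed in response by 0.66 (SE 0.13, adjusted p = 0.157), with 0.21 in Tsu-1 and -0.45 in Kas-1. Its arrays lay at 7.91, 8.03 and 8.16 in Tsu-1 dry and 7.63, 7.84 and 8.02 in Tsu-1 wet, and at 7.38, 7.58 and 7.96 in Kas-1 dry and 7.77, 8.07 and 8.26 in Kas-1 wet. A single Kas-1 dry array reached the range of the wet ones. HTA7 (AT5G27670), a histone H2A gene, met the stricter rule without crossing over, since Tsu-1 was the higher accession in both soils. It lay at 9.44, 9.61 and 9.85 in Tsu-1 dry and 9.20, 9.31 and 9.47 in Tsu-1 wet, and at 8.41, 8.77 and 9.01 in Kas-1 dry and 8.88, 9.03 and 9.28 in Kas-1 wet. Tsu-1 minus Kas-1 was 0.87 in dry soil, with no overlap, and 0.27 in wet soil, a difference in response of 0.60 (SE 0.13, adjusted p = 0.347).

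In the other direction, AT1G78410 had the smallest p. It lay at 5.69, 6.20 and 6.48 in Tsu-1 dry, 6.18, 7.10 and 8.49 in Tsu-1 wet, 6.17, 6.31 and 7.33 in Kas-1 dry, and 5.40, 5.62 and 5.94 in Kas-1 wet. In Kas-1 every dry array exceeded every wet array, and in wet soil every Tsu-1 array exceeded every Kas-1 array. The means of Tsu-1 dry (6.16) and Kas-1 wet (5.65) lay below the filter of 6.19, against 7.13 in Tsu-1 wet and 6.49 in Kas-1 dry. Both separations thus involve Kas-1 wet, at a level where no detection calls are given. The responses of the accessions differed by -1.82 (SE 0.41, adjusted p = 0.347), -1.55 without the 4 high arrays and -2.42 without all 6.

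Further loci among the 10 smallest p-values were AT4G30650 (0.72, adjusted p = 0.397), AT5G43710 (0.44), whose name in RefSeq is mannosidase 4, and AT1G71070 (0.46), the last 2 at an adjusted p of 0.46.

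**Figure D2:**
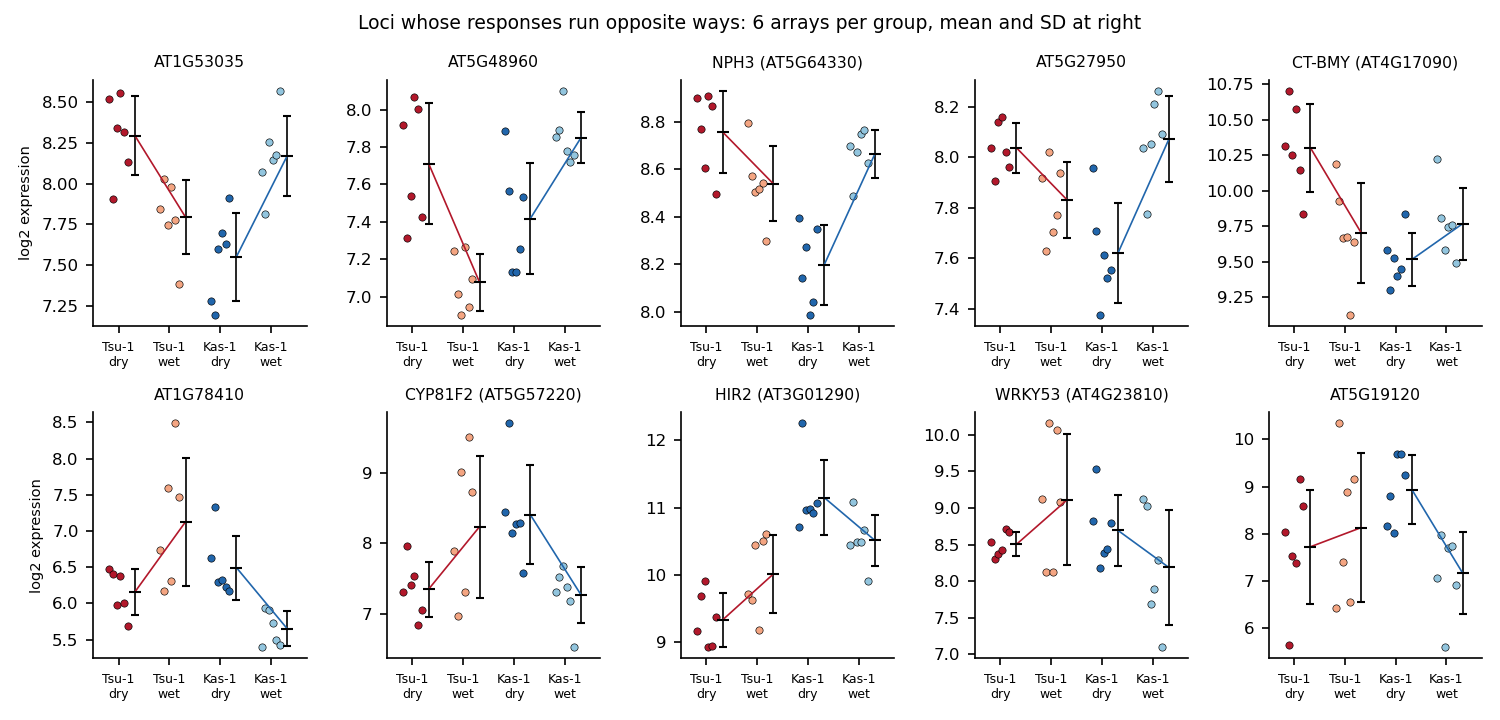
Log2 expression of 10 loci with opposite responses, 1 point per array (6 per group), with the group mean and SD to the right of the points and lines joining the dry and wet means of Tsu-1 (red) and Kas-1 (blue). In the upper row the Tsu-1 line slopes down from dry to wet and the Kas-1 line slopes up; in the lower row the slopes are turned. HIR2 keeps Tsu-1 below Kas-1 in both soils, and Kas-1 dry 2 stands alone at 12.25.

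Among loci above a floor of 7.96 in their highest group mean, the 8 largest differences in each direction were taken. Those with the higher response in Tsu-1 included CT-BMY (AT4G17090), the plastid beta-amylase also called BAM3, which cuts maltose from starch. It lay at 9.83, 10.28 and 10.70 in Tsu-1 dry, 9.13, 9.67 and 10.19 in Tsu-1 wet, 9.30, 9.49 and 9.84 in Kas-1 dry, and 9.49, 9.75 and 10.22 in Kas-1 wet. Tsu-1 minus Kas-1 was 0.79 in dry soil and -0.06 in wet soil. This gave a difference in response of 0.85 (SE 0.22, adjusted p = 0.46), with 0.60 in Tsu-1 and -0.25 in Kas-1, and it was 0.93 without the 4 high arrays and 1.14 without all 6.

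AT4G01390 lay at 10.91, 11.07 and 11.26 in Tsu-1 dry and 9.65, 10.01 and 11.34 in Tsu-1 wet, against 8.56, 9.12 and 9.31 in Kas-1 dry and 8.91, 9.31 and 9.77 in Kas-1 wet. A single Tsu-1 wet array exceeded the dry ones, and Tsu-1 stood above Kas-1 in both soils. Its difference in response was 1.05 (SE 0.30, adjusted p = 0.46), and 1.27 without the 4 high arrays (adjusted p = 0.00464). GDU4 (AT2G24762), of the glutamine dumper family of amino acid export, differed by 0.91 (SE 0.31), AT1G24575 by 0.89, LSH10 (AT2G42610, light sensitive hypocotyls 10) by 0.80 and SHA1 (AT5G63780, shoot apical meristem arrest 1) by 0.77, all with overlapping dry and wet arrays in each accession. GDU4 came to 0.48 and AT3G20820 to 0.14, against 0.78 with all arrays, when the 4 high arrays were left out.

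The loci with the higher response in Kas-1 were led by AT5G19120. Its values were widely spread, at 5.64, 7.78 and 9.15 in Tsu-1 dry, 6.43, 8.14 and 10.34 in Tsu-1 wet, 8.01, 9.02 and 9.70 in Kas-1 dry, and 5.59, 7.38 and 7.98 in Kas-1 wet. The dry and wet arrays did not overlap in Kas-1 and overlapped over nearly their whole range in Tsu-1. The difference in response was -2.18 (SE 0.87, adjusted p = 0.686), with a Kas-1 response of 1.77.

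CYP81F2 (AT5G57220), a cytochrome P450 that modifies indole glucosinolates in defence, lay at 6.83, 7.36 and 7.96 in Tsu-1 dry and 6.96, 8.31 and 9.52 in Tsu-1 wet. In Kas-1 it lay at 7.58, 8.28 and 9.71 in dry and 6.52, 7.34 and 7.68 in wet soil. The order of the accessions reversed, with Tsu-1 minus Kas-1 at -1.06 in dry soil and 0.97 in wet soil. The responses of the accessions differed by -2.03 (SE 0.52, adjusted p = 0.46), -1.59 without the 4 high arrays and -2.59 (adjusted p = 0.00675) without all 6. CYP81F2 loaded positively on the within-group component, by 0.42 log2 per SD of the array scores.

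HIR2 (AT3G01290), of the hypersensitive induced reaction family, lay at 8.93, 9.27 and 9.90 in Tsu-1 dry and 9.18, 10.08 and 10.61 in Tsu-1 wet. It lay at 10.71, 10.97 and 12.25 in Kas-1 dry, above every Tsu-1 dry array, and at 9.91, 10.49 and 11.08 in Kas-1 wet. The difference in response was -1.32 (SE 0.37, adjusted p = 0.46), and -1.12 without the 4 high arrays, which include Kas-1 dry 2 at 12.25. WRKY53 (AT4G23810), a transcription factor of senescence and defence, differed by -1.12 (SE 0.49, adjusted p = 0.785) and by -0.61 without the 4 high arrays. AT3G54150 had the same pattern (-1.63 against -0.76 without them), as did AT5G05300 (-1.27 against -0.50), AT5G25930 (-1.10 against -0.40) and AT5G28630 (-1.06 against -0.62). All 7 of these loci from CYP81F2 on had positive loadings, as did 62 of the 76 loci of the stricter rule that were higher in dry soil in Kas-1. Of the 54 in the other direction 29 did, and of all tested loci 51.5%.

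**Figure D3:**
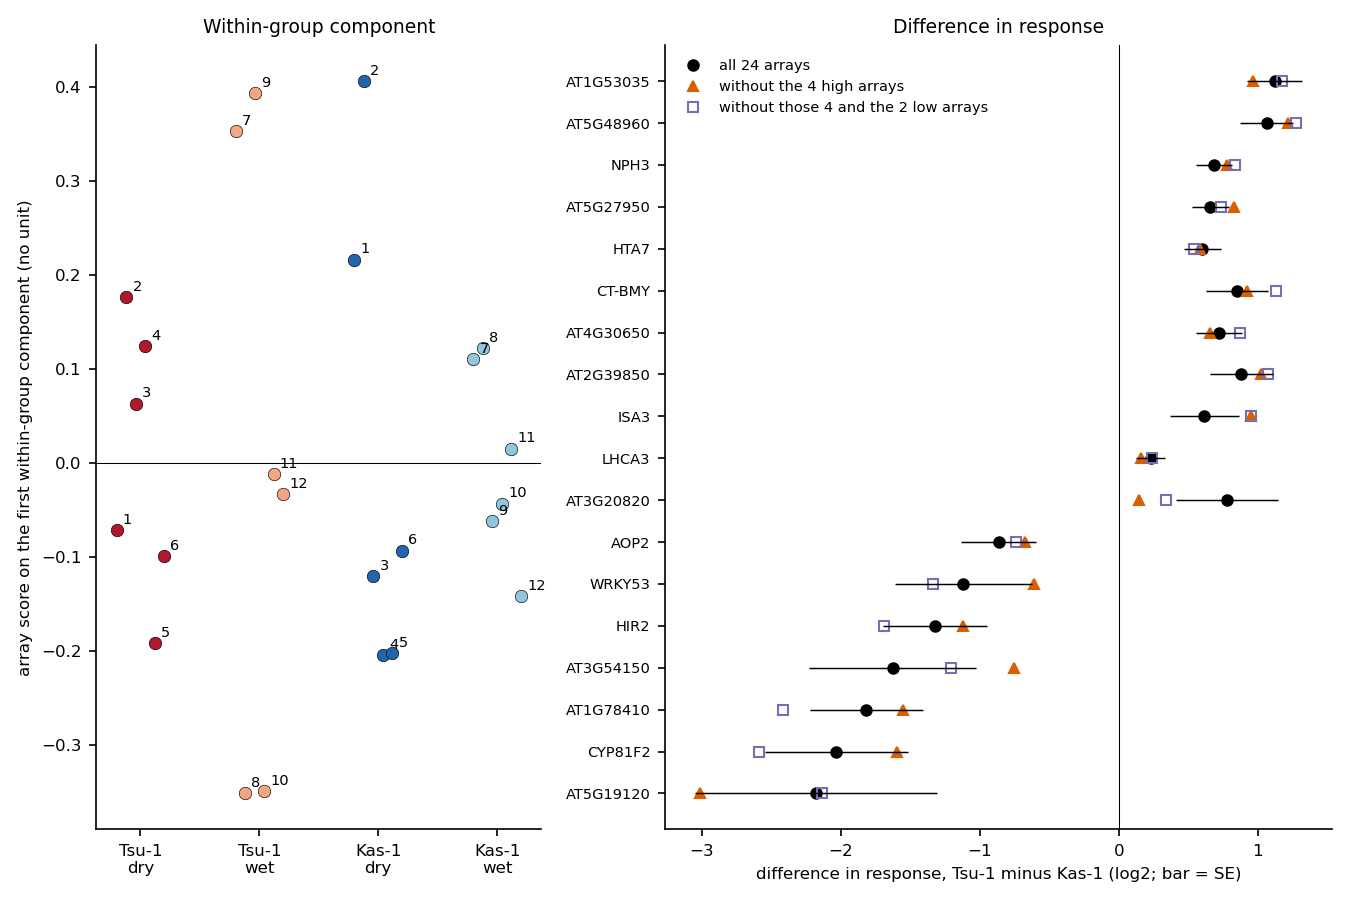
Left, score of each array on the first component of deviations from the group means (no unit), labelled by its title number, with Tsu-1 wet 7 and 9 and Kas-1 dry 1 and 2 at the top and Tsu-1 wet 8 and 10 at the bottom. Right, difference in response (log2, positive where the Tsu-1 response is the higher, bar = SE) of 18 loci with all 24 arrays, without the 4 high arrays, and without 6; all 18 keep their sign, AT3G20820 shrinks to 0.14 and AT3G54150 to -0.76 without the 4.

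Loci that responded in 1 accession only were those with an unadjusted p under 0.01 there, a response under 0.1 in the other, and an unadjusted p under 0.05 for the difference. In Tsu-1 there were 32 (0.26%), 18 higher and 14 lower in dry soil. In Kas-1 there were 148 (1.2%), 27 higher and 121 lower. The starting numbers differed too, since 163 loci had a p under 0.01 in Tsu-1 and 425 in Kas-1, and the difference between the 2 counts was not tested.

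Of the Tsu-1 loci, AT2G39850 had the largest difference. It lay at 8.31, 8.69 and 9.28 in Tsu-1 dry, 7.59, 7.78 and 8.50 in Tsu-1 wet, 7.42, 7.54 and 7.66 in Kas-1 dry, and 7.05, 7.70 and 7.92 in Kas-1 wet. The Tsu-1 groups overlapped through 1 array, and every Tsu-1 dry array exceeded every Kas-1 dry array. The response was 0.84 (SE 0.16, adjusted p = 0.0961) in Tsu-1 and -0.04 in Kas-1, a difference of 0.88 (SE 0.23, adjusted p = 0.46) and of 1.02 without the 4 high arrays.

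MLP28 (AT1G70830), of the major latex protein-like family, lay at 7.59, 8.23 and 8.35 in Tsu-1 dry and 6.80, 7.41 and 7.83 in Tsu-1 wet, against 7.91, 8.05 and 8.26 in Kas-1 dry and 7.70, 8.01 and 8.36 in Kas-1 wet. Only the wet Tsu-1 group stood below the others, and Tsu-1 dry 2 lay within it. This gave a difference in response of 0.74 (SE 0.21, adjusted p = 0.46).

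IAA1 (AT4G14560), an auxin-induced repressor of auxin response, was higher in every Tsu-1 dry array (8.77, 8.86 and 9.43) than in any Tsu-1 wet array (8.31, 8.39 and 8.59). In Kas-1 it lay lower, at 7.51, 7.83 and 8.23 in dry and 7.63, 7.73 and 8.13 in wet soil, with no separation. Its difference in response was 0.43 (SE 0.18, adjusted p = 0.724), and 0.29 without the 4 high arrays. ABCI8 (AT4G04770), of the plastid iron-sulphur cluster assembly system, likewise had all Tsu-1 dry arrays (10.35 to 10.70) above all Tsu-1 wet arrays (9.38 to 10.31). Its response was 0.50 in Tsu-1 and -0.09 in Kas-1. RGF9 (AT5G64770), a peptide of the root meristem growth factor family, had a difference of 0.74, and AT5G57345 one of 0.58.

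Of the 14 loci lower in dry soil in Tsu-1 only, 4 passed the naming floor. ARO2 (AT5G66200, armadillo repeat only 2) lay at 7.48, 7.65 and 7.86 in Tsu-1 dry, below every Tsu-1 wet array (7.93, 8.01 and 8.35), against 7.37, 7.66 and 8.08 in Kas-1 dry and 7.53, 7.65 and 7.80 in Kas-1 wet. The wet Tsu-1 group alone stood high. Its difference in response was -0.41 (SE 0.14, adjusted p = 0.612), and -0.22 without the 4 high arrays, 2 of which are Tsu-1 wet arrays. PATL2 (AT1G22530), a patellin of membrane traffic, differed by -0.56, the transcription factor gene GATA1 (AT3G24050) by -0.35 (-0.19 without the 4), and AT3G23750, named BAK1-associating receptor-like kinase 1 in RefSeq, by -0.30.

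A single locus, AT4G33550, was called within Tsu-1 (1 of 12308, 0.00812%). It lay at 6.67, 8.07 and 10.04 in Tsu-1 dry, above every Tsu-1 wet array (5.31, 5.94 and 6.33), and at 5.20, 5.40 and 6.22 in Kas-1 dry and 5.0, 5.22 and 5.31 in Kas-1 wet. The Kas-1 levels lay around the lower quartile of all loci (5.21), where the files give no detection calls. The mean of AT4G33550 over all arrays, 6.24, passed the filter of 6.19 only through Tsu-1 dry (8.32), since the means of Tsu-1 wet (5.89), Kas-1 dry (5.57) and Kas-1 wet (5.19) lay below it. The fitted Tsu-1 response was 2.44 (SE 0.39, adjusted p = 0.0311), and the difference in response was 2.05 (SE 0.56, adjusted p = 0.46). The call held in 10 of 24 fits that left out 1 array, with responses of 2.09 to 2.77 and adjusted p-values of 0.000966 to 0.116, and the 60th percentile filter left the locus untested.

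In Kas-1, 9 loci were called (0.0731%), all of them lower in dry soil. AT4G30650 lay at 10.22, 10.45 and 10.81 in Kas-1 dry, below every Kas-1 wet array (10.93, 11.17 and 11.41), while Tsu-1 was at 10.98, 11.19 and 11.47 in dry and 10.82, 11.18 and 11.42 in wet soil. Kas-1 wet thus lay level with both Tsu-1 groups, and Kas-1 dry alone was low. It fell by 0.65 in Kas-1 (SE 0.12, adjusted p = 0.0447), with 0.07 in Tsu-1 and a difference of 0.72 (SE 0.17, adjusted p = 0.397).

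OEP16-1 (AT2G28900), a channel of the plastid outer envelope, lay at 10.29, 10.67 and 10.85 in Kas-1 dry and 10.86, 11.24 and 11.34 in Kas-1 wet, just without overlap. Tsu-1 lay above, at 11.25, 11.55 and 11.75 in dry and 11.37, 11.59 and 11.74 in wet soil. The locus fell by 0.55 in Kas-1 (SE 0.10, adjusted p = 0.0447), and the difference in response was 0.51 (SE 0.15, adjusted p = 0.46).

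HXK1 (AT4G29130), a hexokinase that also acts as a glucose sensor, lay at 8.28, 8.43 and 8.55 in Kas-1 dry, below every Kas-1 wet array (8.68, 8.79 and 8.83). In Tsu-1 it lay at 8.37, 8.52 and 8.60 in dry and 8.22, 8.49 and 8.64 in wet soil. Kas-1 wet was the high group. It fell by 0.35 in Kas-1 (adjusted p = 0.0447), and the difference was 0.38 (SE 0.10, adjusted p = 0.46).

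PFK7 (AT5G56630), a phosphofructokinase of glycolysis, fell by 0.45 in Kas-1 with a response of -0.02 in Tsu-1. Its difference of 0.43 (adjusted p = 0.46) was 0.62 (adjusted p = 0.00464) without the 4 high arrays. GA2 (AT1G79460), the ent-kaurene synthase of gibberellin synthesis, fell by 0.62 in Kas-1 against -0.05 in Tsu-1, and AT1G62330 fell by 0.59 against -0.13. AT1G13930 and COR15B (AT2G42530), a cold-regulated protein of the plastid stroma, also fell in Kas-1. Their Tsu-1 responses, -0.19 and -0.56, were the lowest of the 9 called loci. The Tsu-1 responses of AT1G62330, AT1G13930 and COR15B were over the 0.1 limit of the rule for 1 accession only. COR15B had a difference in response of 0.34 (adjusted p = 0.88). At all 9 the dry Kas-1 arrays lay below all wet ones, which the contrast that chose them favours. Dry and wet Kas-1 arrays did not overlap at 1.14% of all loci. With Kas-1 dry 4 and 5 averaged to 1 array, 0 were called in Kas-1. Fits that left out 1 array called 0 to 18 loci in Kas-1, and 0 in several of them, such as without Kas-1 wet 12.

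Further loci of the Kas-1 rule were lower in dry soil. THIC (AT2G29630), which makes the pyrimidine part of thiamine, lay at 10.17, 10.43 and 10.75 in Kas-1 dry, below every Kas-1 wet array (10.78, 11.12 and 11.33), against 10.76, 11.41 and 11.77 in Tsu-1 dry and 10.78, 11.44 and 11.54 in Tsu-1 wet. Tsu-1 thus kept its median level in dry soil. Its difference in response was 0.63 (SE 0.21, adjusted p = 0.6). AT5G23240 (DJC76, a DnaJ protein) differed by 0.79 and AT1G07050 by 0.67, the first 1.34 and the second 0.26 without the 4 high arrays.

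Among those higher in dry Kas-1 soil, UPM1 (AT5G40850), the methyltransferase that opens the path to sirohaem, the cofactor of nitrite and sulphite reductase, lay at 8.77, 9.17 and 9.49 in Kas-1 dry, above every Kas-1 wet array (7.85, 8.42 and 8.52). In Tsu-1 it lay at 8.39, 8.53 and 9.16 in dry and 7.92, 8.57 and 9.14 in wet soil, with full overlap. The Kas-1 response was 0.86 (SE 0.18, adjusted p = 0.0797) and the difference -0.83 (SE 0.26, adjusted p = 0.556). Without all 6 arrays the difference was -0.52 and the Tsu-1 response 0.42, so the locus was not flat in Tsu-1 there.

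MIOX2 (AT2G19800), a myo-inositol oxygenase, lay at 7.33, 8.88 and 9.65 in Kas-1 dry and 7.05, 7.56 and 8.0 in Kas-1 wet, against 6.79, 7.13 and 7.83 in Tsu-1 dry and 6.57, 7.08 and 8.25 in Tsu-1 wet. The Kas-1 groups overlapped, and the difference in response was -1.08 (SE 0.46, adjusted p = 0.734). AT4G21870 (-0.81), AT1G33600 (-0.63) and ATCG00210 (-0.48, and -0.27 without the 4 high arrays) completed the named loci of this kind besides AOP2.

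**Figure D4:**
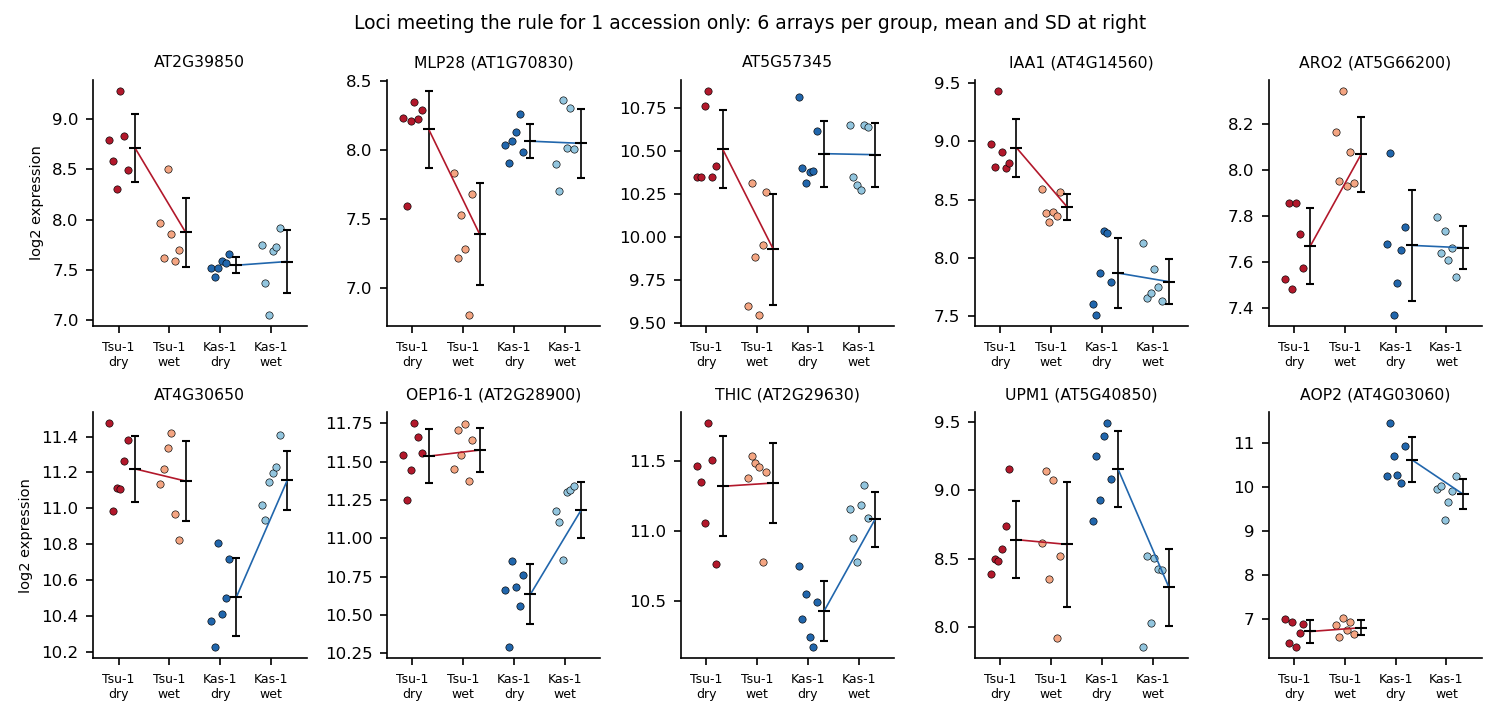
Log2 expression of 10 loci that met the rule for 1 accession only, or were called in Kas-1, 1 point per array (6 per group), with the group mean and SD to the right and lines joining the dry and wet means of Tsu-1 (red) and Kas-1 (blue). The upper row (AT2G39850 to ARO2) has a sloped Tsu-1 line and a flatter Kas-1 line; the lower row (AT4G30650 to AOP2) has the reverse, and AOP2 lies between 6.35 and 7.0 in all Tsu-1 arrays.

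Pathways were described by the mean response of gene lists, and a list counted as opposite when its means differed in sign and were each at least 0.05. Of 33 lists with at least 5 tested members 7 were opposite, 6 of them positive in Tsu-1 and negative in Kas-1. Over all tested loci 50.2% of responses were positive in Tsu-1 and 39.1% in Kas-1, and 28.2% of loci were positive in Tsu-1 and negative in Kas-1, so part of this lean was shared by the whole table. The Tsu-1 response was the higher at 59.9% of all tested loci. No member of any of the 7 was called for the difference in response. The list means were not tested and have no error here. In each of the 7, the list means of single dry and wet arrays overlapped in both accessions. Within a Tsu-1 group their SD ran from 0.04 (auxin response, dry) to 0.38 (indole glucosinolates, wet). The Tsu-1 responses of the 7 were at most 0.11 in size, so their direction in Tsu-1 is uncertain. Of 24 fits that left out 1 array, the list stayed opposite in 24 for auxin response, 23 for histones, 23 for phototropism and photoreceptors, 22 for aliphatic glucosinolates, 22 for light harvesting, 20 for indole glucosinolates and 20 for starch and sucrose metabolism. Each of these fits shares all but 1 array with the fit that chose the lists, and leaving out a Kas-1 array cannot move a Tsu-1 mean. The starch and indole lists lost the pattern only on leaving out a Tsu-1 array. In bulk leaf RNA, fewer cells of a type cannot be told apart from less RNA per cell.

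Genes of starch and sucrose metabolism averaged 0.07 in Tsu-1 and -0.19 in Kas-1 over 21 tested members (medians 0.04 and -0.22). Of these, 15 were positive in Tsu-1 and 6 in Kas-1, 19 of 21 had the higher response in Tsu-1 against 59.9% of all loci, and 6 had an unadjusted p under 0.05. The median difference in response was 0.20 against 0.04 for all loci. The 6 were CT-BMY, HXK1, PFK7, ISA3, SBE2.1 and DPE2, of which HXK1 and PFK7 were among the loci called in Kas-1.

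ISA3 (AT4G09020), a debranching enzyme of starch breakdown, lay at 9.69, 10.24 and 10.57 in Tsu-1 dry, 9.97, 10.22 and 10.76 in Tsu-1 wet, 8.57, 9.16 and 9.60 in Kas-1 dry, and 9.49, 9.78 and 10.06 in Kas-1 wet. Kas-1 dry was the low group and overlapped Kas-1 wet at its top. Its difference in response was 0.62 (SE 0.25, adjusted p = 0.697), and 0.95 without the 4 high arrays (adjusted p = 0.0403).

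The starch branching enzyme SBE2.1 (AT2G36390) differed by 0.49 (0.03 in Tsu-1 and -0.46 in Kas-1). DPE2 (AT2G40840), which handles maltose in the cytosol, differed by 0.52, and by 0.94 without the 4 high arrays. The glucan water dikinase SEX1 (AT1G10760, 0.45) and the phosphoglucan phosphatase SEX4 (AT3G52180, 0.53), which add and remove phosphate on starch for its breakdown, had Tsu-1 responses of 0.01 and 0.07, and Kas-1 responses of -0.44 and -0.45. Without the 4 high arrays the difference of SEX4 was 1.01 and that of SEX1 0.79. Of the members for starch synthesis, APL1, ADG1 and SBE2.2 had positive responses in both accessions, and SS1 a positive one in Kas-1 (0.16). Without the 4 high arrays the list means were 0.12 and -0.27.

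Histone genes averaged 0.11 in Tsu-1 and -0.22 in Kas-1 over 15 tested members, with 12 positive in Tsu-1 and 1 in Kas-1. The higher response was in Tsu-1 at 14 of 15 (59.9% of all loci), and 3 had an unadjusted p under 0.05, HTA7 (0.60), HTA2 (0.33) and RAT5 (0.29), all of the H2A family. HTA10 (0.49), HTB11 (0.40), HTA13 (0.41) and HTA6 (0.62) had wide errors, and HTA13, HTA6 and GAMMA-H2AX (0.35) turned to -0.20, -0.25 and -0.10 without the 4 high arrays. Only 3 of the 15 had positive loadings on the within-group component. Histone genes are near copies of each other, and whether their probes share signal was not tested. Genes of cell division and DNA replication, during which histone genes are known to be most active, did not meet the rule for opposite means. They averaged 0.046 in Tsu-1 and -0.23 in Kas-1 over 7 tested members (medians -0.04 and -0.30). Only 3 were positive in Tsu-1 and 1 in Kas-1. Without the 4 high arrays the means were -0.09 and -0.04.

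Auxin response genes averaged 0.10 in Tsu-1 and -0.14 in Kas-1 over 21 members. Of these, 15 were positive in Tsu-1 and 8 in Kas-1, beside 50.2% and 39.1% of all loci, so the Kas-1 count was near that share. The higher response was in Tsu-1 at 18 of 21 (59.9% of all loci), and 5 had an unadjusted p under 0.05. The largest difference was at DFL1 (AT5G54510), which conjugates auxin to amino acids. It lay at 7.17, 7.58 and 8.29 in Tsu-1 dry, 6.9, 7.42 and 8.34 in Tsu-1 wet, 6.13, 6.55 and 6.95 in Kas-1 dry, and 6.85, 7.17 and 7.86 in Kas-1 wet. Every Tsu-1 dry array exceeded every Kas-1 dry array, and the wet groups overlapped. The difference in response was 0.86 (SE 0.32, adjusted p = 0.66).

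SHY2 (AT1G04240), the repressor IAA3, lay at 5.58, 6.32 and 6.65 in Kas-1 dry, below every Kas-1 wet array (6.67, 7.01 and 7.43), against 6.88, 7.10 and 7.51 in Tsu-1 dry and 6.78, 7.09 and 7.67 in Tsu-1 wet. Kas-1 dry alone was low. The difference was 0.79 (SE 0.27, adjusted p = 0.603), and 0.36 without the 4 high arrays. The auxin efflux carriers PIN7 (AT1G23080, 0.43) and PIN3 (AT1G70940, 0.36) both crossed over, and PAP2 (AT4G29080, 0.38), a phytochrome-associated protein of the same repressor family as IAA1, had all Kas-1 dry arrays below all Kas-1 wet arrays. The list means were 0.18 and -0.09 without the 4 high arrays.

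Genes of phototropism and the photoreceptors averaged 0.06 in Tsu-1 and -0.10 in Kas-1 over 15 members. Of these, 12 were positive in Tsu-1 and 4 in Kas-1, beside 50.2% and 39.1% of all loci. The higher response was in Tsu-1 at 13 of 15 (59.9% of all loci). NPH3 alone had an unadjusted p under 0.05. PIF4 (AT2G43010), a growth-promoting transcription factor bound by phytochrome, had 0.11 in Tsu-1 and -0.37 in Kas-1. The blue-light receptors CRY1 (AT4G08920, difference 0.22) and PHOT1 (AT3G45780, 0.20) had small values of the same kind, and CHUP1 (AT3G25690), needed for chloroplast movement, one of -0.17. The phytochrome partner PKS1 had 0.30, and -0.26 without the 4 high arrays. Values for photosynthesis genes were small. The 8 light harvesting genes had positive responses in 8 of 8 in Tsu-1 (mean 0.10) and in 1 of 8 in Kas-1 (mean -0.07), LHCA3 (AT1G61520, 0.23) being the only 1 with an unadjusted p under 0.05. None of the 8 loaded positively on the within-group component. The opposite means ended without the 4 high arrays, where both were -0.03, and LHCB3, LHCB4.1, LHCB4.2 and LHCB6 turned to negative differences. Photosystem and electron transport subunits had the higher response in Tsu-1 in 21 of 22 members, again beside 59.9% of all loci (means 0.10 and -0.04), 1 of which loaded positively, and without the 4 high arrays their means were -0.06 and 0.04.

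**Figure D5:**
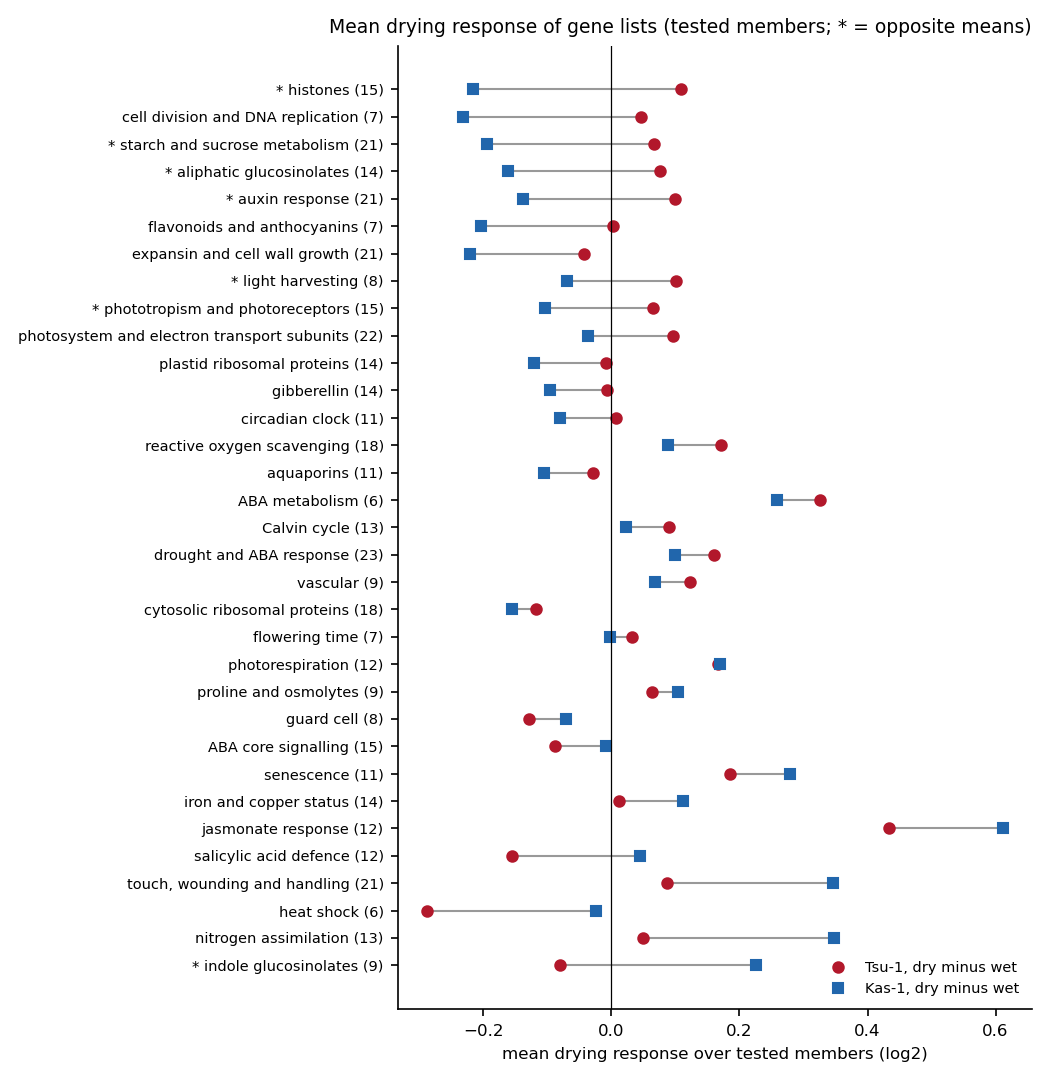
Mean drying response (dry minus wet, log2) over the tested members of 33 gene lists in Tsu-1 (red circles) and Kas-1 (blue squares), ordered by the difference, with the number of tested members in brackets and opposite lists starred. Histones sit at the top (0.11 and -0.22) and indole glucosinolates at the bottom (-0.08 and 0.23).

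Genes of aliphatic glucosinolates, made from methionine, averaged 0.08 in Tsu-1 and -0.16 in Kas-1 over 14 members, with medians of 0.07 and -0.25, and 5 had an unadjusted p under 0.05. MYB28 (AT5G61420), the main transcription factor of the branch, lay at 9.79, 10.15 and 10.37 in Tsu-1 dry, 9.75, 9.99 and 10.30 in Tsu-1 wet, 8.97, 9.35 and 9.63 in Kas-1 dry, and 9.23, 9.78 and 10.12 in Kas-1 wet. Tsu-1 dry arrays all exceeded Kas-1 dry arrays, and the difference in response was 0.53 (SE 0.20, adjusted p = 0.674).

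Enzymes and a transporter of the branch had like values. IPMI1 (AT3G58990) of chain elongation differed by 0.74, the plastid transporter BAT5 (AT4G12030) by 0.49, the P450 CYP83A1 (AT4G13770) by 0.48 and the elongation enzyme IMS2 (AT5G23020) by 0.53. AOP2 (AT4G03060), which makes alkenyl side chains late in the branch, ran the other way. It lay at 6.35, 6.77 and 7.0 in Tsu-1 dry and 6.58, 6.80 and 7.0 in Tsu-1 wet, close to the filter of 6.19, against 10.09, 10.48 and 11.44 in Kas-1 dry and 9.25, 9.93 and 10.25 in Kas-1 wet. The Kas-1 response was 0.78 (SE 0.19, adjusted p = 0.113) at a locus where Tsu-1 minus Kas-1 was -3.91 in dry soil and -3.05 in wet soil, and the difference in response was -0.86 (SE 0.27, adjusted p = 0.556). The list means were 0.23 and -0.18 without the 4 high arrays. Leaving out a single array moved the Tsu-1 mean to -0.01 (without Tsu-1 wet 12) or 0.01 (without Tsu-1 dry 6), so its sign rested on single arrays.

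Genes of indole glucosinolates, made from tryptophan, averaged -0.08 in Tsu-1 and 0.23 in Kas-1 over 9 members. The median difference was -0.15 and the mean -0.31, so the mean rested on CYP81F2 (-2.03), the only member with an unadjusted p under 0.05, and on MYB51 (AT1G18570), the branch's transcription factor (-0.82). MYB51 lay at 7.78, 8.58 and 8.96 in Tsu-1 dry, 8.16, 8.87 and 10.01 in Tsu-1 wet, 8.79, 9.13 and 10.64 in Kas-1 dry, and 8.47, 8.95 and 9.38 in Kas-1 wet. The highest Kas-1 dry value was array 2, and without the 4 high arrays the difference of MYB51 was -0.23. ASA1 (AT5G05730), the anthranilate synthase of tryptophan synthesis, had -0.40, and -0.08 without them. GGP1 had -0.19, and CYP79B2 and CYP79B3, which open the branch, had 0.25 and 0.40. The list means were 0.03 and -0.03 without the 4 high arrays, so the opposite pattern did not hold there. Without Kas-1 dry 2 alone, the Kas-1 mean was 0.05 and the mean difference -0.13. The Tsu-1 mean was 0.00 without Tsu-1 wet 9 and -0.02 without Tsu-1 wet 12.

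Members of the other lists with an unadjusted p under 0.05 were picked after their values were seen. In ABA core signalling the ABA receptor genes PYL4 (AT2G38310) and PYL5 (AT5G05440) had the higher response in Kas-1 and PYL7 (AT4G01026, 0.30) in Tsu-1. PYL4 lay at 9.41, 9.73 and 10.02 in Tsu-1 dry, below every Kas-1 dry array (10.08, 10.63 and 10.76), and at 9.54, 10.34 and 10.63 in Tsu-1 wet and 9.74, 10.26 and 10.49 in Kas-1 wet. The accessions were thus apart in dry soil and overlapped in wet soil. Its difference in response was -0.77 (SE 0.25, adjusted p = 0.593), and -1.11 (adjusted p = 0.0159) without the 4 high arrays. PYL5 crossed over, with -0.31 in Tsu-1 and 0.30 in Kas-1. The whole list, however, averaged -0.09 in Tsu-1 and -0.01 in Kas-1.

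In nitrogen assimilation, NIA1 (AT1G77760), a nitrate reductase, lay at 7.16, 7.62 and 8.62 in Kas-1 dry, above every Kas-1 wet array (6.27, 6.56 and 6.76), against 6.23, 7.26 and 8.56 in Tsu-1 dry and 6.57, 7.22 and 7.67 in Tsu-1 wet. The Kas-1 groups were apart and the Tsu-1 groups overlapped fully. The difference was -1.10 (SE 0.46, adjusted p = 0.735), and NRT2:1 (AT1G08090), a nitrate transporter, had -0.49. With UPM1 they were 3 of 13 tested members, and the list averaged 0.05 in Tsu-1 and 0.35 in Kas-1, the same sign in both.

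NYC1 (AT4G13250), a chlorophyll b reductase of senescence, lay at 10.64, 10.71 and 10.79 in Tsu-1 dry and 10.01, 10.37 and 10.67 in Tsu-1 wet, against 9.99, 10.09 and 10.26 in Kas-1 dry and 10.16, 10.20 and 10.33 in Kas-1 wet. A single Tsu-1 wet array reached the dry range, and the difference was 0.47 (SE 0.12, adjusted p = 0.46). SAG20 (AT3G10985), another senescence gene, had -0.78, and -0.17 without the 4 high arrays. WRKY70 (AT3G56400), a transcription factor of salicylic acid defence, had -0.71. COR413-PM1 (AT2G15970), a cold-regulated membrane protein, had 0.46, with all Kas-1 dry arrays below all Kas-1 wet arrays. The DELLA growth repressor RGA1 (AT2G01570, 0.32), the chalcone isomerase TT5 (AT3G55120, 0.43), the catalase CAT3 (AT1G20620, 0.27), the ascorbate peroxidase SAPX (AT4G08390, 0.40) and the trichome list member AT5G06700 (0.37) had the higher response in Tsu-1.

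Crossover loci were spread over the 5 nuclear chromosomes, from 2.36% of the tested loci on chromosome 5 to 3.24% on chromosome 4. The 352 loci hold 350 distinct sets of values, since 110 tested loci form 55 pairs with identical values in the table.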

How the data were processed

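Leaf RNA of 24 samples was labelled with biotin and hybridised to 1 array each. The file used is the authors' deposited table of log2 values, which holds a single value for each locus on each array. The log2 unit was read from the values (3.12 to 14.2), and array medians lay between 6.77 and 6.87. The submitters' processing notes name MAS5 without a version or a role, so background correction, probe summary, normalisation and genome build are not given in the sources used here, and no coordinates are printed. The number of arrays limits the precision.

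Groups come from the titles. Loci were matched to the RefSeq TAIR10.1 table for names and chromosomes (20290 matched, 224 did not). Loci with a mean above the 40th percentile (6.19) were tested with limma 3.58.1 in R 4.3.3, on 4 group means with an intensity trend. All p-values are two-sided, with the Benjamini-Hochberg adjustment taken over all 12308 loci of a comparison, and adjusted p-values in the text are limma's. The procedure was tested on simulated data.

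The members, the 37 gene lists (611 genes, 557 in the table, 439 tested) and the rules were chosen with earlier results of these data known. Named loci were the 10 smallest p-values for the difference in response, the 8 largest crossover or opposite loci in each direction and up to 6 in each direction of the loci responding in 1 accession (highest group mean above 7.96), every locus called within 1 accession, and up to 6 members of each opposite list. Of these loci, 1 is not reported here. Alternatives were array weights, quantile normalisation, median centring, a 60th percentile filter or none, no intensity trend, a replicate block, averaging of arrays, and leaving arrays out.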

Additional observations from a re-analysis of the deposited data

Results flagged for a closer look

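Single arrays stood far from the other 5 of their group, by Dixon's ratio at the 95% level, in 26 of 352 groups looked at (88 named loci in 4 groups), where chance gives about 1 in 20. Kas-1 dry 2 accounts for 6 of them: HIR2 at 12.25 (others 10.71 to 11.07), MYB51 at 10.64, ASA1 at 11.63, SHA1 at 9.03, LHCA1 at 13.15 and LHCB4.1 at 13.31. It has the highest score of all arrays on the within-group component, and the indole glucosinolate genes MYB51 and ASA1 rest on it most, as the report gives with and without it and the other high arrays. Kas-1 dry 1 stood apart at SBE2.1 (8.83) and PAP2 (9.17), and Kas-1 dry 6 at AT4G21870 (10.9) and AT5G28630 (8.68).

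In Kas-1 wet, array 8 stood apart at SBE2.1 (8.58), CYP83A1 (10.84) and CHUP1 (10.11), array 9 at GAMMA-H2AX (10.32), array 11 at ATCG00210 (7.65) and array 7 at LHCB4.1 (13.31). In Tsu-1 dry, array 2 was low at MLP28 (7.59, others 8.21 to 8.35), array 5 was apart at AT1G62330 (7.28), AT3G54150 (5.47) and PIN3 (9.38), array 3 at IAA1 (9.43) and array 4 at PAP2 (10). In Tsu-1 wet, array 11 was low at ABCI8 (9.38), THIC (10.78) and LSH10 (7.04), and array 12 at AT1G62330 (6.62).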

How the results depend on the processing

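The counts were 0 loci called for the difference in response, 722 at an unadjusted p under 0.05, 352 crossover, 130 opposite, 32 in Tsu-1 only, 148 in Kas-1 only, 7 opposite lists, 1 call in Tsu-1, 9 in Kas-1, and 3757 and 3703 calls between accessions in dry and wet soil. With no filter they were 1133 at an unadjusted p under 0.05, 633 crossover and 71 in Tsu-1 only, with 2 calls in Tsu-1 and 1 in Kas-1, and the higher and lower differences numbered 622 and 511. The 60th percentile filter gave 2 calls for the difference, 19 loci in Tsu-1 only and 0 calls in Tsu-1. Median centring left 1 call in Kas-1. Averaging Kas-1 dry 4 and 5 left 0, and averaging consecutive numbers to 3 per group left 0 in Kas-1 and 2 in Tsu-1. Array weights gave 42 calls for the difference, 1936 at an unadjusted p under 0.05, 841 crossover, 283 opposite, 57 in Tsu-1 only, 602 in Kas-1 only, and 17 and 1003 calls in Tsu-1 and Kas-1.

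Without the 4 high arrays, chosen after seeing the data like the next 2 settings, 353 loci were called for the difference (219 higher and 134 lower in Tsu-1), 2859 had an unadjusted p under 0.05, 1344 crossed over, 871 were opposite, 165 were in Tsu-1 only and 295 in Kas-1 only, with 45 and 106 calls in Tsu-1 and Kas-1. Of the 722 loci, 99 were among the 353. Without the 2 low arrays the counts were 8, 1540, 702, 522 and 106 in Tsu-1 only, with 15 opposite lists and 7 calls in Tsu-1. Without all 6 they were 33, 2028, 1008, 645, 76 and 235, with 20 and 78 calls. Across loci the loading on the component correlated with the difference in response at r -0.209 with all arrays, 0.731 without the 4 and 0.337 without all 6, and no call gained in these settings was tested apart from that shift.

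Leaving out each array in turn gave 0 to 3 calls for the difference (3 without Tsu-1 dry 6), 580 to 914 loci at an unadjusted p under 0.05, 266 to 454 crossover, 105 to 223 opposite (the highest of these 3 without Tsu-1 wet 8), 25 to 45 in Tsu-1 only, 101 to 226 in Kas-1 only, 3 (without Tsu-1 wet 12) to 10 opposite lists, 0 to 7 calls in Tsu-1, 0 to 18 in Kas-1, and 2971 to 4097 and 2873 to 4257 calls between accessions in dry and wet soil. The labels do not say whether title numbers pair the samples. Deviations of same-numbered arrays correlated at -0.397 to 0.555 and above 0.1 in 4 of 12 pairs. These correlations cannot decide it, since 1 component held 46.9% of the variance of the deviations. With the number as a replicate block 0 loci were called, 666 had an unadjusted p under 0.05, 319 crossed over and 141 were opposite, and the 1-accession counts could not be fitted.

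Of 3159 values for 88 named loci over 36 settings, 3080 kept direction and side of the threshold, 63 gained a call and 16 reversed. No difference in response was called in the main fit, so no call could be lost. Most named loci were chosen by their responses on the same arrays, and 24 of the settings leave out a single array. Their direction could therefore hardly change, and the count of 3080 does not measure how firm the values are. Array weights turned GGP1 to 0.16 and CYP79B2 to -0.17. Leaving out the 4 high arrays turned LHCB6 to -0.013, LHCB4.1 to -0.011, LHCB4.2 to -0.038, LHCB3 to -0.13, GAMMA-H2AX to -0.10, HTA13 to -0.20, HTA6 to -0.25, PKS1 to -0.26 and GGP1 to 0.46. Leaving out all 6 turned LHCB3 to -0.064, CYP79B3 to -0.073, PKS1 to -0.030, GGP1 to 0.28 and CYP79B2 to -0.32. The cause was not tested.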
